A study of Mus musculus with 24 samples.

Results

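The 10 genes described here, Fos, Jun, Junb, Egr1, Atf3, Ier2, Ier3, Klf4, Myc and Dusp1, are immediate early genes and close relatives of that response. Their transcripts were followed in MMH-D3, a line of mouse hepatocytes, between 12 and 58 h past a pulse of serum. A gene entered through every probe set that the platform annotation gives to its symbol alone. This yielded 12 probe sets, since Jun and Klf4 have 2 each, out of 45037 probe sets without controls. All 12 passed the filter on low values, a log2 value of at least 5 on at least 6 arrays, which kept 18526 probe sets and 9825 of 18193 genes. Most of them encode nuclear factors, but Dusp1 encodes a phosphatase and Ier3 a regulator of cell survival, so the name "transcription factors" does not cover all 10.

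The cells were grown to confluence, kept for 14 days in growth medium containing 2% DMSO that was renewed on alternate days, and then shocked with serum. This 1 line was read at 24 times, 2 h apart, with 1 Affymetrix array per time and no replicate, and no unshocked culture was part of the comparison. MMH lines come from livers of mice carrying an active form of the MET growth factor receptor, so these hepatocytes are immortalized cells. Neighbouring arrays were compared in 6 blocks of 4, at 12 to 18 h, 20 to 26 h, 28 to 34 h, 36 to 42 h, 44 to 50 h and 52 to 58 h. The SD of a block therefore holds both the scatter of the arrays and any change over its hours. Every value is a log2 expression value as the authors normalized it with GCRMA, and every difference is the later block minus the earlier one.

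Immediate early genes are transcribed within minutes of a growth signal, without new protein synthesis, through kinases of the MAP kinase family and factors already bound at their promoters. FOS, JUN and JUNB pair into the AP-1 factor, and ATF3 is a member of the same leucine zipper class that joins it under stress. EGR1 and KLF4 bind DNA through zinc fingers, MYC drives ribosome production and growth together with MAX, and DUSP1 removes phosphate from MAP kinases and so closes the loop. The acute response to serum preceded the first array. The arrays therefore show the levels that follow it, and no value here measures the induction itself.

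The promoters of 4 members are printed below, Atf3 and Klf4 as genes that rose after 42 h and Fos and Junb as genes that rose before it. Myc, which also rose after 42 h, and Egr1, which also rose before it, had no promoter entry and could not be printed. Each runs from 250 bases before to 50 after the annotated start in RefSeq, build GRCm38.p6, and is read along the gene, 5′ to 3′. The Atf3 window is chr1:191183284-191183583 on the minus strand, the Klf4 window chr4:55532426-55532725 on the minus strand, the Junb window chr8:84978699-84978998 on the minus strand and the Fos window chr12:85473640-85473939 on the plus strand. Capitals mark the motifs searched, on both strands.
Atf3: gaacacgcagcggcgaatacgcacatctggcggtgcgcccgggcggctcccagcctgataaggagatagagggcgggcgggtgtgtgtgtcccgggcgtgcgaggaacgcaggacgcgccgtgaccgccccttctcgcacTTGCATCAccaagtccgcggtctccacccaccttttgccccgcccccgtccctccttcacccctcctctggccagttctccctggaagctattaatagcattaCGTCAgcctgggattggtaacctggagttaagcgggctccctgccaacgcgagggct
Klf4: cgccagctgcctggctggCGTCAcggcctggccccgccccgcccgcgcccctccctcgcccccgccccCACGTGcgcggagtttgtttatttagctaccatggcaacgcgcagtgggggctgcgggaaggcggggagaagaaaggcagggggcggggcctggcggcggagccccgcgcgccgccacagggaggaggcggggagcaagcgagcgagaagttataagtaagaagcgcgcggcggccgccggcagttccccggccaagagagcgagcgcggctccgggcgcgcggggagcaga
Fos: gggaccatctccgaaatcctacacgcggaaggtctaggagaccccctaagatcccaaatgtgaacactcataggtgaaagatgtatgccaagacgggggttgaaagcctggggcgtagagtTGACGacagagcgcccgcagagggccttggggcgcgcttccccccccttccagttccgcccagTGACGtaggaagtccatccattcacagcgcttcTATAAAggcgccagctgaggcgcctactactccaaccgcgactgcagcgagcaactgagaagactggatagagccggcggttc
Junb: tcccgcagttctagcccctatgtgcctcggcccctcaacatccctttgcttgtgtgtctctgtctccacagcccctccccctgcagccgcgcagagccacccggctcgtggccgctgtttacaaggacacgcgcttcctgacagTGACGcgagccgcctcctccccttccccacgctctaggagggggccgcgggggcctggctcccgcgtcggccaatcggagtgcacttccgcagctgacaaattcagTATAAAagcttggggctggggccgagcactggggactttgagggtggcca

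Promoters of 7 of the 10 members were in the table used, which had no entry for Egr1, Ier2 and Myc. The search covered the CRE core TGACG, the full CRE TGACGTCA that contains it on both strands, the AP-1 site TGANTCA, the E-box CACGTG, the C/EBP-ATF composite TGATGNAA, the TATA box TATAAA and the CArG box of serum response factor. In the Atf3 window the C/EBP-ATF composite lay 110 bases before the start, in a form that 3.97% of all 32851 promoters of this length hold. A CRE core, present in 20.8% of promoters, was found in the windows of Atf3, Klf4, Junb, Fos and Dusp1, and the Fos window held 2. The TATA box, present in 13.6% of promoters, was in the Fos and Junb windows, and the E-box, present in 7.15%, in the Klf4 window. The Junb TATA match begins at the annotated start itself, the Fos match 33 bases before it. Dusp1 also held the full CRE, found in 1.79% of promoters, an E-box, and a CRE core apart from the full CRE, 191 bases before the start. No match to the AP-1 site (7.81% of promoters) or the CArG box (1.63%) was found in any of the 7 windows, and Jun and Ier3 had no match to any of these motifs. Sites farther than 250 bases before the start, and the promoters without an entry, were not searched. The matches describe letters in these windows and were not tested for binding.

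Across the table the lowest value was 2.17 and made up 41.2% of all values, yet none of the members' values lay at it, the lowest being 7.07 for Atf3. The median correlation of an array with the others lay between 0.972 and 0.990. The array at 40 h had the lowest median of the kept probe sets, 8.96 where the others had 9.04 to 9.14, and the smallest share of values at the lowest, 39.4%. Its label also carries a suffix that the others lack. Without it the Ier3 level at 36 to 42 h differed by 0.26 from that at 20 to 26 h and by 0.18 from that at 12 to 18 h, and neither was called. Normalization moved the array medians by little, since centring each array on the median of the kept probe sets shifted it by between -0.12 and 0.06. It moved the balance of calls across the table more. Of the probe sets that changed between 36 to 42 h and 44 to 50 h, 63.9% were higher in the later block as deposited, 46.7% after centring and 48.6% after quantile normalization. For the linear change those shares were 59.9%, 48.0% and 47.6%. The direction of each member's call in that step held under both scalings. Of the hepatocyte markers, 6 of 6 were above the filter, with Alb, the gene of serum albumin, at a mean of 15.97. The 7 markers of fibroblasts or stellate cells and the 5 of endothelium all failed the filter, and of 6 macrophage markers Adgre1, Ptprc and Cd163 were near 2.17. The other 3 macrophage markers passed the filter, with means of 14.79 for Cd14, 6.15 for Cd68 and 5.36 for Csf1r. The cells also held bile duct markers, with Krt19 at a mean of 15.44, so the hepatocyte label does not cover all markers present.

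**Figure D1:**
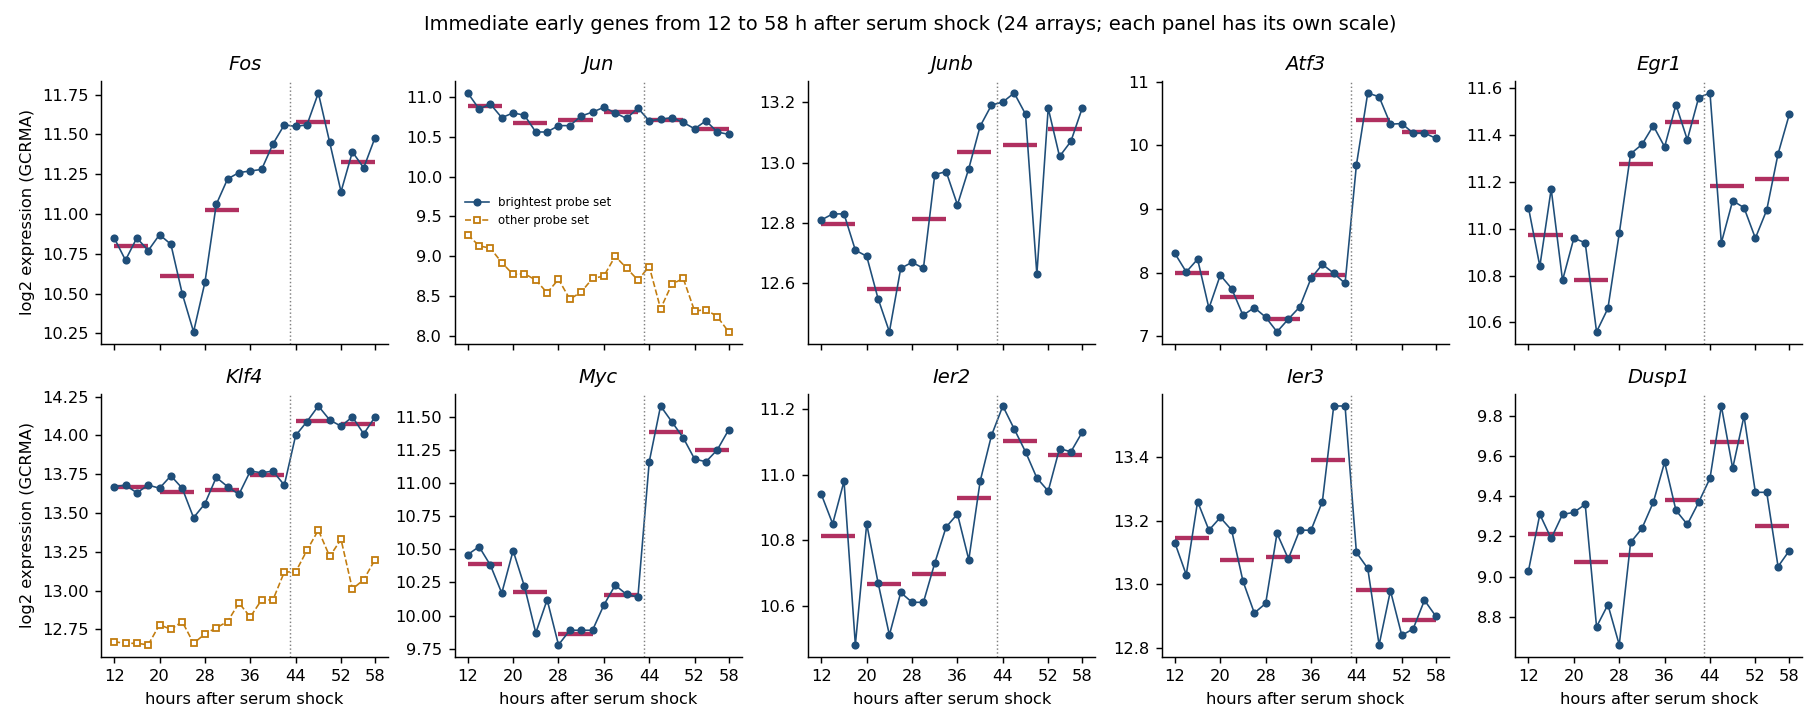
Log2 expression of the 10 genes against hours after serum shock, with 1 point per array, the mean of each block of 4 arrays as a red bar and a dotted line between 42 and 44 h. Atf3 and Myc step up after that line, Ier3 steps down, and Fos and Egr1 climb from 26 to 42 h.

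Between 36 to 42 h and 44 to 50 h, 3 of the 10 genes rose and 1 fell. Atf3 rose 5.41-fold, Myc 2.35-fold and Klf4 1.27-fold, while Ier3 fell to 0.755 of its earlier level. The other 6, among them the AP-1 genes Fos, Jun and Junb, did not pass the test. Over all 18526 probe sets, 20.3% were called higher and 11.4% lower in the same comparison, so 4 calls among 10 genes is close to the general rate, and the sizes for Atf3 and Myc are what stands beside it. In RNA from whole cultures, fewer cells of a type and less RNA per cell cannot be told apart.

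Atf3, whose product can repress or activate stress genes, had log2 values of 9.69, 10.82, 10.76 and 10.33 at 44, 46, 48 and 50 h, against 7.91, 8.13, 7.99 and 7.83 at 36, 38, 40 and 42 h. Its lowest later array lay above its highest earlier one. The block means were 10.40 ± 0.52 and 7.97 ± 0.13 (SD, n = 4 arrays each), a difference of 2.44 ± 0.20 (SE) with an adjusted p of 3.66e-09. The rise took 2 steps, 1.86 between 42 and 44 h and 1.13 between 44 and 46 h, beside a median change of 0.21 in size between neighbouring arrays. The level then stayed high, at 10.34, 10.19, 10.19 and 10.11 from 52 to 58 h. Before the step Atf3 had drifted between 8.30 at 12 h and 7.07 at 30 h.

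Myc, the growth regulator that partners MAX, had log2 values of 11.16, 11.58, 11.46 and 11.34 at 44, 46, 48 and 50 h, against 10.08, 10.23, 10.16 and 10.14 at 36, 38, 40 and 42 h. The arrays did not overlap. The difference was 1.23 ± 0.10 with an adjusted p of 6.32e-09, and 1.02 of it fell between 42 and 44 h. From 52 to 58 h the 4 arrays lay between 11.16 and 11.40.

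Klf4, a zinc finger factor also known from stem cell reprogramming, is bright on this array, and its range over all 24 arrays was 0.71. The brightest probe set gave 14.00, 14.09, 14.19 and 14.10 at 44 to 50 h, against 13.77, 13.76, 13.77 and 13.68 at 36 to 42 h. Every later array exceeded every earlier one, by a difference of 0.35 ± 0.05 in the means (adjusted p = 2.76e-05). The other Klf4 probe set also rose, by 0.29 (adjusted p = 0.00302), but its arrays overlapped, with 13.12 at both 42 and 44 h. It was also the one called higher before the step. Its day-matched difference, 36 to 42 h minus 12 to 18 h, was 0.30 (adjusted p = 0.00289), against 0.08 (adjusted p = 0.274) for the brighter set. Whether the probe sets differ beyond their error was not tested.

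Ier3 ran the other way. It had log2 values of 13.10, 13.05, 12.81 and 12.98 at 44 to 50 h, against 13.17, 13.26, 13.56 and 13.56 at 36 to 42 h, and the highest later array was below the lowest earlier one. The difference was -0.41 ± 0.09 with an adjusted p of 0.00103. Its 2 highest arrays of the whole course, at 40 and 42 h, stood directly before the drop of 0.46 between 42 and 44 h.

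For 4 of the 10 genes, Atf3, Myc, Klf4 and Ier3, the largest change between neighbouring arrays was the one between 42 and 44 h. Klf4 counts here by its brightest probe set only. Its other probe set changed by -0.01 between 42 and 44 h, and its largest change was -0.33 between 52 and 54 h. The same was true of 16.4% of all kept probe sets. The other 6 had theirs elsewhere. Fos gained 0.49 between 28 and 30 h, Egr1 lost 0.64 between 44 and 46 h and Dusp1 lost 0.61 between 22 and 24 h. Junb gained 0.55 between 50 and 52 h, right after a loss of 0.53 that left the 50 h array alone. Ier2 lost 0.50 between 16 and 18 h, and no 2 h change of the brightest Jun probe set exceeded 0.21 in size. These are single pairs of arrays with no error of their own.

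The genes that did not pass the test at the step had differences of 0.28 for Dusp1, 0.19 for Fos, 0.17 for Ier2, 0.02 for Junb, -0.10 for Jun and -0.27 for Egr1. Their adjusted p values ran between 0.128 and 0.899. Egr1 was at 11.58, 10.94, 11.12 and 11.09 at 44 to 50 h, against 11.35, 11.53, 11.38 and 11.56 at 36 to 42 h. Its 44 h array was the highest of the course, and the comparison depends on it. Without that array the difference was -0.41 with an adjusted p of 0.019.

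**Figure D2:**
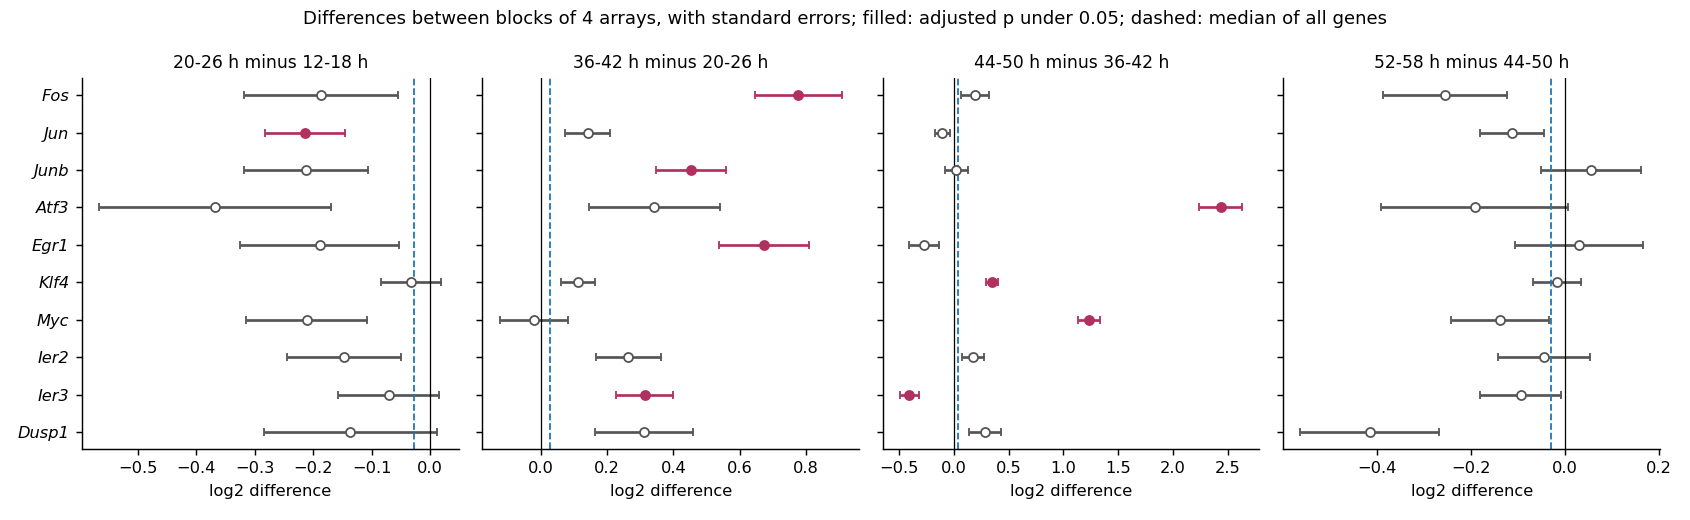
Log2 differences (later minus earlier block, points, with standard errors as bars) for the 10 genes in 4 comparisons of neighbouring or nearby blocks, each panel on its own scale. Filled points passed an adjusted p of 0.05, the dashed line is the median of all genes, and in the panel of the step Atf3 at 2.44 and Myc at 1.23 stand far to its right.

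Before the step, 6 members had a low between 24 and 28 h, and Fos, Egr1, Junb and Ier3 were called higher at 36 to 42 h than at 20 to 26 h. The lowest of the 24 values lay at 24, 26 or 28 h for 6 of the 10 genes, Fos and Klf4 at 26 h, Junb and Egr1 at 24 h, and Myc and Dusp1 at 28 h. Across all kept probe sets, 11.7% had their lowest value there. Klf4 counts by its brightest probe set, as its other was lowest at 18 h. Ier3 is not among the 6, with its lowest value at 48 h. The window was chosen after the values were seen, and 3 neighbouring arrays share whatever touched those cultures. The comparison of 36 to 42 h minus 20 to 26 h was likewise chosen after seeing the data. In it Fos, Egr1, Junb and Ier3 rose and none of the 10 fell, where 4.53% of all probe sets were called higher and 2.90% lower.

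Fos, the AP-1 subunit best known from the serum response, had log2 values of 11.27, 11.28, 11.44 and 11.56 at 36, 38, 40 and 42 h, against 10.87, 10.81, 10.50 and 10.26 at 20, 22, 24 and 26 h. The later arrays increased with time, the earlier ones decreased, and they did not overlap. The difference was 0.78 ± 0.13 (1.71-fold, adjusted p = 0.00127). At 28, 30, 32 and 34 h the values were 10.57, 11.06, 11.22 and 11.26, so most of the climb lay between 26 and 32 h. Fos also exceeded its level of a day earlier, with a difference of 0.59 between 36 to 42 h and 12 to 18 h (adjusted p = 0.00206).

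Egr1, a zinc finger factor that responds to the same kinases, was at 11.35, 11.53, 11.38 and 11.56 at 36 to 42 h, against 10.96, 10.94, 10.56 and 10.66 at 20 to 26 h. The groups did not overlap. The difference was 0.67 ± 0.14 (1.59-fold, adjusted p = 0.00454), and set against 12 to 18 h it was 0.48 (adjusted p = 0.0116). Unlike Fos, which kept a mean of 11.58 ± 0.13 at 44 to 50 h, Egr1 had a mean of 11.18 ± 0.28 there. Whether that contrast between the genes exceeds the error was not tested.

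Junb, which can oppose JUN within AP-1, was at 12.86, 12.98, 13.12 and 13.19 at 36 to 42 h, against 12.69, 12.55, 12.44 and 12.65 at 20 to 26 h, with no overlap. The difference was 0.45 ± 0.11 (adjusted p = 0.0120), but no longer past the threshold when the filter on low values was dropped (adjusted p = 0.0504). Ier3 showed a difference of 0.31 ± 0.09 (adjusted p = 0.0288), and its arrays did overlap. That call was lost without the filter (adjusted p = 0.0979) and when the array at 24, 26, 40 or 42 h was left out. Dusp1 had a difference of 0.31 and Ier2 of 0.26 in the same comparison, with adjusted p values of 0.201 and 0.0985.

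In the day-matched comparison, 36 to 42 h minus 12 to 18 h, Fos, Egr1 and Ier3 rose and none of the 10 fell, beside 12.4% of probe sets higher and 12.6% lower. Ier3 changed by 0.24 (adjusted p = 0.0424), a call lost without the array at 12, 14, 18, 32, 40 or 42 h. It was also lost on centring (adjusted p = 0.0561), with no filter (adjusted p = 0.12) and with 1 variance prior (adjusted p = 0.057). Myc and Atf3 had differences of -0.23 (adjusted p = 0.106) and -0.03 (adjusted p = 0.941). These comparisons share arrays. The block at 36 to 42 h is the later one here and in the climb and the earlier one in the step, so a high value in it moves all 3.

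Jun alone was called lower between 12 to 18 h and 20 to 26 h, where 6.14% of probe sets were higher and 6.15% lower. The brightest Jun probe set was at 10.80, 10.77, 10.56 and 10.56 at 20 to 26 h, against 11.05, 10.85, 10.91 and 10.74 at 12 to 18 h. The arrays overlapped at 18 h. The difference was -0.21 ± 0.07 (adjusted p = 0.0414), and it missed the threshold without the array at 12, 14, 16, 24, 26 or 56 h and with no filter (adjusted p = 0.0773). The other Jun probe set differed by -0.41 (adjusted p = 0.0114), with values of 8.77, 8.78, 8.70 and 8.54 against 9.27, 9.13, 9.10 and 8.92 and no overlap. All 10 genes had a negative estimate in this comparison on their brightest probe set, and 9 of them did not pass the test. Their median was -0.19 beside -0.03 over all genes. The share of negative estimates over all genes was not counted. Atf3 had the widest estimate of those not called, -0.37, with arrays of the earlier block between 7.44 and 8.30. The other Klf4 probe set had a positive estimate of 0.09 (adjusted p = 0.455).

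The Jun probe sets differed in their calls over the whole course, and the difference between them was not tested. The fitted linear change over 46 h was -0.14 ± 0.07 (adjusted p = 0.121) for the brightest probe set and -0.56 ± 0.13 (adjusted p = 0.00104) for the other. The brightest set was called lower after quantile normalization (-0.19, adjusted p = 0.0224), after centring (-0.21, adjusted p = 0.0102) and with no cycle in the fit (-0.21, adjusted p = 0.0252). Both were highest at 12 h and lowest at 58 h. The fainter set covered 9.27 to 8.05, and the brighter one 11.05 to 10.53.

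**Figure D3:**
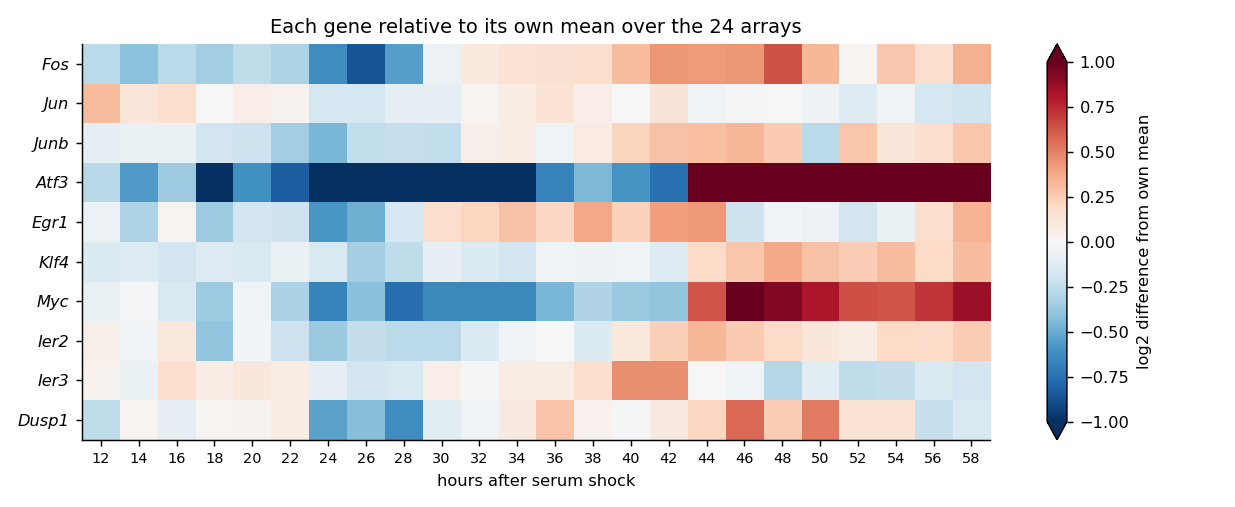
Log2 difference of each gene from its own mean over the 24 arrays, red above and blue below, with hours after serum shock across and the colour scale ending at 1 in either direction. Atf3, Klf4 and Myc turn red at 44 h and stay so, whereas Fos and Egr1 are blue at 24 to 26 h and red before 44 h.

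In the last comparison, 52 to 58 h minus 44 to 50 h, none of the 10 genes was called by limma, as was the case for almost the whole table, with 0.0054% of probe sets higher and 0.027% lower. At an unadjusted p of 0.05 limma called 1 of the 10 genes, Dusp1, whose difference was -0.41 (adjusted p = 0.340). The share of all probe sets at that unadjusted threshold was not counted, so this 1 call has no general rate beside it. Dusp1, the MAP kinase phosphatase, was at 9.42, 9.42, 9.05 and 9.13 at 52 to 58 h, against 9.49, 9.85, 9.54 and 9.80 at 44 to 50 h, without overlap. The other Jun probe set had a difference of -0.41 as well (adjusted p = 0.154). Atf3, Myc and Klf4 had differences of -0.19, -0.14 and -0.02.

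Over the whole course 8 of the 10 genes had a linear change above 0 that passed the test, and none had one below 0, beside 24.9% of probe sets higher and 16.7% lower. The fitted changes over 46 h were 3.36 ± 0.60 for Atf3 (adjusted p = 0.000104), 1.43 ± 0.31 for Myc (adjusted p = 0.00083) and 1.18 ± 0.15 for Fos (adjusted p = 1.74e-06). Junb, Klf4, Egr1, Ier2 and Dusp1 followed with 0.66, 0.58, 0.57, 0.56 and 0.53. The Dusp1 call was lost with no filter (adjusted p = 0.0526) and with no cycle in the fit (adjusted p = 0.0896), and the Egr1 call without the arrays from 12 to 18 h (adjusted p = 0.0719). Without the 8 arrays from 44 to 58 h, Fos, Junb and Egr1 remained called higher. The linear change was then -0.33 for Atf3 (adjusted p = 0.398) and -0.57 for Myc (adjusted p = 0.0132). Ier2, Klf4 and Dusp1 lost their calls, with 0.19, 0.11 and 0.31 (adjusted p = 0.442, 0.376 and 0.326). Ier3, at -0.01 over all arrays, was at 0.51 (adjusted p = 0.00417) without them.

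The 24 h rhythm, tested as a sinusoid of 24 h beside a linear change, was called for 2 of the 10 genes, Egr1 and Ier3, where 2.59% of all probe sets were called. Both calls depended on single arrays. Egr1 missed the threshold when the array at 24, 26 or 52 h was left out, and Ier3 when any 1 of 7 arrays was. Fos and Junb had amplitudes of 0.24 and 0.17 with adjusted p values of 0.0701 and 0.0649, and first peaks at 16.1 and 15.4 h. Without the arrays from 44 to 58 h, 7 of the 10 were called. So were 1602 of all 18526 probe sets, against 479 over all 24 arrays. The 16 arrays left span little more than 1 cycle. In such a span a cycle and a dip at 24 to 28 h cannot be told apart.

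The members fell into groups of like courses, described here by Pearson's r over arrays that share the same cultures, labelling and normalization. Atf3 and Myc had an r of 0.979 over 24 arrays and 0.835 over the 16 arrays from 12 to 42 h. Atf3 and Klf4 had 0.938 over 24 arrays but 0.291 over those 16, so their likeness is carried by the step. For Fos and Egr1 the order was the reverse, with 0.706 over 24 arrays and 0.925 over 16. Fos and Junb had 0.788 and 0.83. Jun had an r between -0.324 and 0.514 with the other 9 over 24 arrays, its highest being that with Ier3. Over the 16 arrays from 12 to 42 h it had 0.783 with Atf3, 0.719 with Ier2 and 0.649 with Myc, against 0.375 with Ier3.

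**Figure D4:**
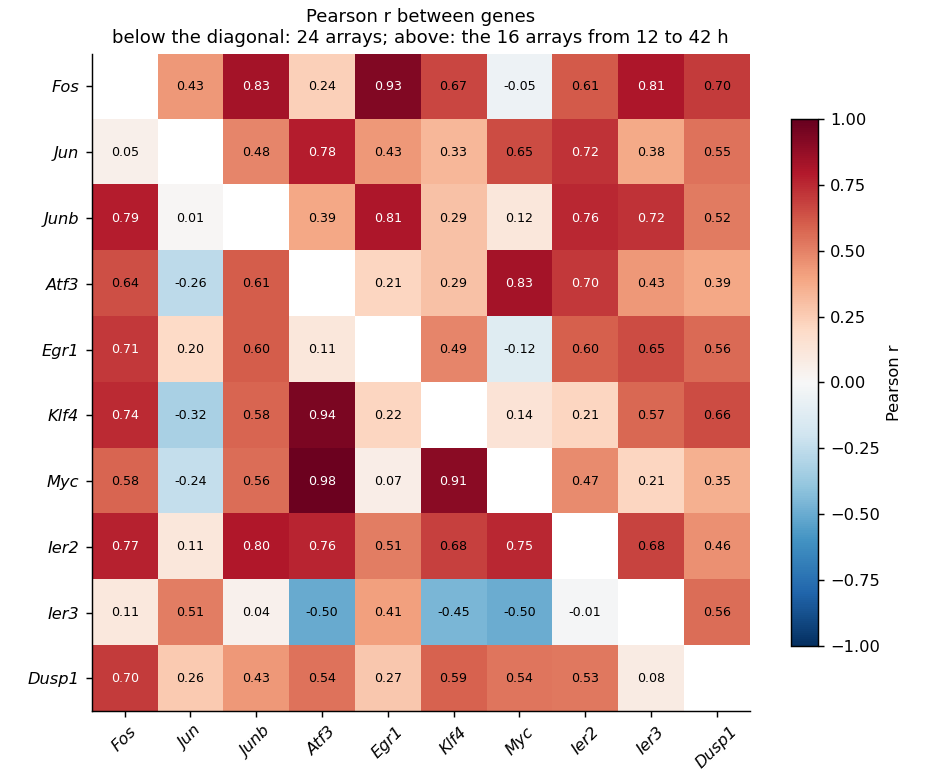
Pearson's r between each pair of the 10 genes, over 24 arrays below the diagonal and over the 16 arrays from 12 to 42 h above it, with colour from blue (negative) to red (positive). Atf3, Klf4 and Myc form a red group over 24 arrays, and Fos, Junb and Egr1 are closest to each other before the step.

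Among the 9825 kept genes, those most like Atf3 over 24 arrays were Ddit3, the gene of the stress factor CHOP, with an r of 0.986, Ppp1r15a, the gene of the phosphatase subunit GADD34, with 0.984, and the glycine transporter gene Slc6a9 with 0.983. Ddit3 had values of 11.94, 12.38, 12.26 and 12.01 at 44 to 50 h, against 9.86, 10.04, 10.34 and 10.08 at 36 to 42 h, and rose by 2.07 (adjusted p = 1.56e-12). The genes nearest to Myc were Atf3 itself, Slc25a33, a mitochondrial nucleotide carrier gene, with 0.977, and Eif2b3, a subunit of a translation initiation factor, with 0.974. Slc25a33 rose by 2.11 and Eif2b3 by 0.97 at the step. These genes were picked by likeness over arrays that include the step. A shared step is therefore largely set by that choice and is no independent evidence. Klf4 was closest to C9orf72 and the zinc transporter gene Slc30a4, at 0.966 each, and to Slc6a9 at 0.957.

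The correlations with the nearest genes were lower for the other 7 members. Fos was closest to Tmbim1 at 0.911, the potassium channel gene Kcnn4 at 0.897 and Zbtb7c at 0.892. Junb was closest to Klf5, a relative of Klf4, at 0.892, followed by Shf and Nucb1. Egr1 was closest to Dmkn at 0.839, Lzts2 at 0.824 and its own family member Egr3 at 0.820. Ier2 was closest to Zfyve27, Med31 and the splicing factor gene Srsf5, between 0.895 and 0.910. Ier3 had Sidt2, Nsfl1c and Hacd3 nearest, between 0.861 and 0.906. All 3 fell at the step, by 0.30, 0.26 and 0.35, as their choice by likeness to Ier3 makes likely. Dusp1 was nearest to Tmem106a, Ano10 and Mfhas1, between 0.801 and 0.831, and Jun to Mon1a, Stk25 and Rnf167, between 0.825 and 0.846.

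Related genes were counted in 7 lists, one for each set of partners, and the step was read against a median of 0.04 over all genes. Across all probe sets, as given above, 20.3% were higher and 11.4% lower at the step, 24.9% and 16.7% over the whole course, and 4.53% and 2.90% in the climb. Of 12 measured AP-1 and CREB family partners 6 rose and 2 fell, with a median difference of 0.23. Atf4, which encodes a leucine zipper factor of the amino acid response, rose by 1.14 ± 0.08 (adjusted p = 2.43e-10). Jdp2, an AP-1 repressor gene, rose by 1.07 ± 0.10 (adjusted p = 2.49e-08), with values of 11.55, 11.30, 11.14 and 11.24 at 44 to 50 h, against 10.14, 10.11, 10.32 and 10.36 at 36 to 42 h. Fosl1, a relative of Fos, rose by 0.81 ± 0.16 (adjusted p = 0.000493). The probe set of Atf4 is of the kind that can bind related transcripts. Fosb, Batf and Batf3 were below the filter.

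Of 22 other immediate early genes 6 rose and 4 fell at the step, and the median was 0.02. Plk3 and Sgk1, both kinase genes, rose by 0.86 and 0.81, and the zinc finger gene Klf10 by 0.51. Egr2, Egr4, Nr4a2, Nr4a3 and Arc were below the filter. Over the whole course 11 of the 22 rose and 3 fell, with Plk2 at 1.44, Ier5l at 1.28 and Sgk1 at -1.09. In the climb from 20 to 26 h to 36 to 42 h, 6 of the 22 rose and 1 fell, with a median of 0.13 beside 0.03 over all genes. Btg2, an antiproliferative gene, rose by 0.70 there (adjusted p = 0.00026) and Egr3 by 0.63 (adjusted p = 0.0241), while Sgk1 fell by 1.25 (adjusted p = 0.000727). Btg2, Egr3 and Sgk1 were singled out for the climb after their values were seen.

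Of 28 genes of the ERK pathway and its feedback 6 rose and 3 fell at the step, with a median of 0.06, which is close to the shares over the whole table (20.3% and 11.4%). The risers with the widest differences encode inhibitors, of which the list holds many. They were the phosphatase gene Dusp4 with 0.75 ± 0.10 (adjusted p = 9.62e-06), Errfi1, which restrains the EGF receptor, with 0.61 ± 0.08 (adjusted p = 1.34e-05), and Spry1 with 0.49 ± 0.17 (adjusted p = 0.0319). Dusp10, another phosphatase gene, had a difference of -0.37 (adjusted p = 0.0198), and Spry2 and Spry4 were among those not called. Sos1 and Nras, which pass the signal on, rose by 0.25 and 0.20 (adjusted p = 0.0362 and 0.0209). Egfr had a linear change of 0.65 (adjusted p = 0.0353). Dusp4 and Spry1 had linear changes of 1.67 and 1.03. Of 12 genes of the JNK and p38 pathway 1 rose, Mapkapk3 by 0.55 (adjusted p = 0.00319), and 1 fell, Map3k1 by 0.23 (adjusted p = 0.0163). Over the whole course Mapkapk3 and Mapk11 rose by 0.97 and 0.91 and Map2k3 fell by 0.31. Transcript levels of kinases do not measure their activity.

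MYC's partners and its known targets moved in both directions. Of 10 genes of the MYC-MAX network 1 rose and 2 fell at the step, with a median of -0.16. Mxd3 and Mxd4, which encode repressors that compete with MYC for MAX, fell by 1.78 ± 0.37 (adjusted p = 0.000899) and 0.65 ± 0.12 (adjusted p = 0.000315), and Mnt, a repressor of the same network, rose by 0.34 (adjusted p = 0.0179). Over the whole course Mxd1 fell by 0.86, Mycn by 0.52 and Mxd4 by 0.47. Of 20 genes known to be induced by MYC 11 rose and 3 fell at the step, with a median of 0.29. Nop58 and Nop56, which serve ribosomal RNA modification, rose by 0.84 and 0.83, and Cad, for pyrimidine synthesis, by 0.78. The 3 that fell were the transferrin receptor gene Tfrc, Shmt1 of folate metabolism and the lactate dehydrogenase gene Ldha, with -0.75, -0.39 and -0.65. Tfrc and Shmt1 also had linear changes of -0.98 and -0.83.

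All 10 of the stress genes that act with ATF3 rose at the step, with a median of 2.02. This list was chosen with that rise already known, so its count is no independent evidence. Chac1, for glutathione breakdown, was at 11.38, 11.63, 11.26 and 11.22 at 44 to 50 h, against 5.68, 5.68, 5.68 and 5.90 at 36 to 42 h. The repeated 5.68 makes its difference of 5.64 the least certain in size. Trib3, a pseudokinase gene, rose by 4.74 ± 0.17 (adjusted p = 2.14e-15) and Asns, for asparagine synthesis, by 2.79 ± 0.13 (adjusted p = 3.12e-13), where the Asns probe set can bind related transcripts. Ppp1r15a rose by 2.00 ± 0.15 and Ddit3, as given above, by 2.07. None of the 10 was called between 44 to 50 h and 52 to 58 h. Before the step the list was split, for in the climb Ddit3 and Ppp1r15a rose by 0.45 and 0.48 while Atf4 and Asns fell by 0.37 and 0.62.

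**Figure D5:**
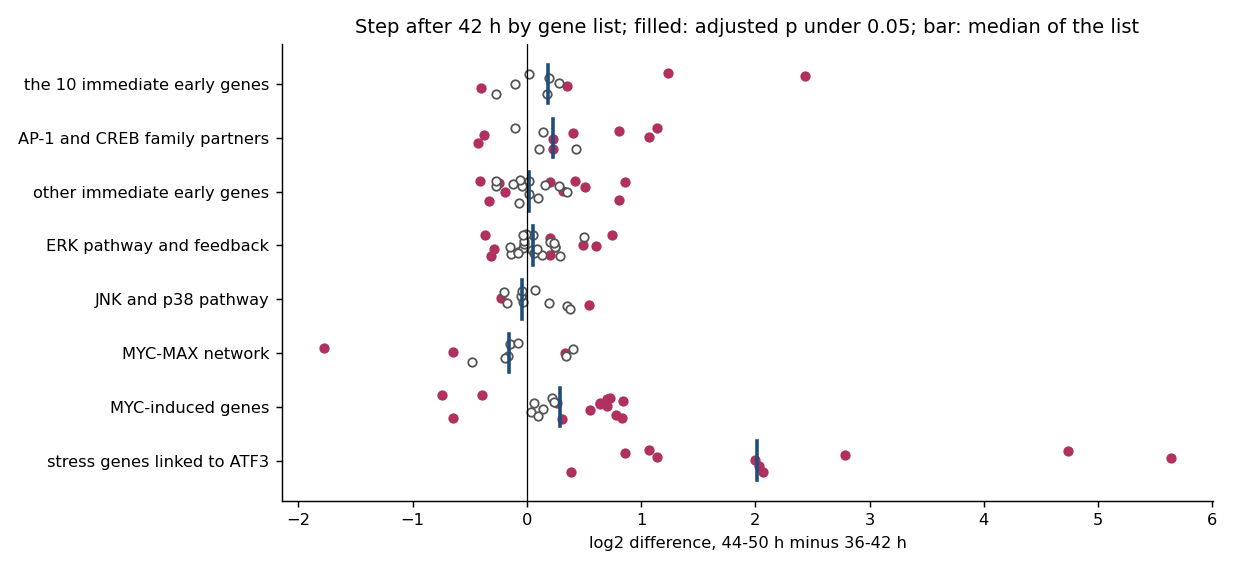
Log2 difference between 44 to 50 h and 36 to 42 h for each measured gene of 8 lists, with 1 point per gene, filled where the adjusted p was under 0.05, and the median of each list as a bar. The median of the stress genes, 2.02, lies to the right of the other medians, and the MYC-MAX network has a median below 0.

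Markers of the cells moved with the step as well. Of 6 hepatocyte markers 3 fell and 1 rose, with Ttr at -0.98, Alb at -0.41, Hnf4a at -0.39 and the retinol carrier gene Rbp4 at 0.25. Of 4 bile duct markers Krt19 fell by 0.26 and none rose. The log2 of the summed linear level ran from 16.40 to 16.84 for the hepatocyte list at 44 to 50 h, against 16.82 to 17.11 at 36 to 42 h. For the bile duct list it ran from 15.53 to 15.74, against 15.69 to 16.06. For the fibroblast and endothelial lists the highest sums were 5.25 and 4.49, against 5.25 and 4.51, since all their genes lay below the filter. The macrophage list ran from 14.68 to 14.93, against 14.68 to 15.13, and none of its 3 genes above the filter was called. The part of these shifts in the members' changes was not tested. Likewise not tested was the renewal of the medium, whose hours after the shock the labels do not give.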

How the data were processed

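RNA of 24 samples of MMH-D3 cells, 1 per time, was hybridised to single-colour Affymetrix arrays. The deposited log2 values cover 45101 probe sets, 64 of them controls, and the authors used GCRMA for them, per the submitters' processing notes. That method takes out background by probe sequence and normalizes all arrays jointly, so it can pull arrays toward each other. Neither its version nor its settings are given in the sources used here, and the scale was read from the numbers.

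The filter kept probe sets that reached a log2 value of 5 on 6 or more of 24 arrays. The brightest probe set on average stood for a gene, named from GEO's platform annotation where that gives 1 symbol. With limma 3.58.1 in R 4.3.3, one fit held a linear change and a 24 h sinusoid (2 terms), and another held the means of 6 blocks of 4 arrays, both with a variance prior that follows intensity. Adjustment was by Benjamini-Hochberg over all 18526 kept probe sets, with a threshold of 0.05. The step compares 44 to 50 h with 36 to 42 h. Errors of differences are standard errors of the fit. Nothing in the labels says that samples came from separate cultures, and arrays of a block stand in for replicates. The p-values therefore measure the scatter of single arrays, which may be technical, together with any change the fit leaves out, such as that within a block. The fits treat neighbouring arrays as independent. The number of arrays limits the precision. Both fits were tested on simulated data.

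The members, gene lists, blocks and tests were chosen with earlier results of these data known. The text names all 10 members, from each list the 3 called genes of largest change in the step and in the linear term, and for each member the 3 genes of highest correlation. Some genes of the lists are not reported here. Alternatives were centring, quantile normalization, no filter, 1 variance prior, other trends, blocks of time left out and each array left out in turn.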

Additional observations from a re-analysis of the deposited data

Results flagged for a closer look

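In 60 groups of 4 arrays, 1 for each gene's probe set and block, 2 had an array whose distance from the other 3 made up nearly the whole range of the group. Chance flags about 1 in 20 groups, which is more than were found. The Junb array at 50 h was at 12.63, where the others from 44 to 48 h lay between 13.16 and 13.23. Without it the step difference of Junb was 0.16 (adjusted p = 0.165), against 0.02 with it, and the day-matched difference passed the threshold (adjusted p = 0.0275). The Myc array at 28 h was at 9.78, where the other 3 from 30 to 34 h were at 9.89.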

How the results depend on the processing

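The step calls of Atf3, Myc, Klf4 and Ier3 held under every setting tried, with differences over the arrays left out of 2.30 to 2.67, 1.17 to 1.31, 0.32 to 0.38 and -0.48 to -0.35. Of 2064 alternative values of single members, 1987 stayed on the same side of the threshold, 42 lost the call and 32 gained one. Another 3 reversed in direction where either value was called. Changes of sign between values that were both uncalled are held in the 1987, such as the linear change of Ier3 with single arrays left out (-0.08 to 0.04). The 3 came from leaving out 44 to 58 h, which gave linear changes of -0.33 for Atf3, -0.57 for Myc and 0.51 for Ier3. That setting called 5 members in place of 8, and 5644 of 18526 probe sets in place of 7691. Of the 5, Fos, Junb, Egr1 and Ier3 were higher and Myc lower. The 24 h rhythm depended most on the model. Against 479 probe sets and 2 members it called 198 and 0 with no filter, 1316 and 4 with a spline trend of 3 df, 2064 and 6 with a quadratic one, 1602 and 7 without 44 to 58 h and 2672 and 6 without 12 to 18 h. Centring or no trend left 1 member. Leaving out single arrays gave 174 to 706 probe sets (fewest without 26 h) and 0 to 3 members. With no filter 0 members were called early and 2 in the climb. The probe sets called were then 1619 of 45037 early, against 2278 of 18526 with the filter. In the climb they were 630, against 1376, and late 10, against 6. Leaving out single arrays gave 1096 to 3062 probe sets and 0 to 2 members early, 667 to 2128 probe sets in the climb and 0 to 82 late, most without 50 h. The linear calls without 44 to 58 h split 47.1% higher. Jun was called lower at the step after centring (-0.17, adjusted p = 0.0341) and with 44 to 58 h as the later block (-0.16, adjusted p = 0.0324), a window added after seeing the data. Without a filter more probe sets share the adjustment, and leaving out arrays leaves fewer for the error. Calls both rose and fell under these settings, and the causes were not tested.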
